A study of Schizosaccharomyces pombe with 16 samples.

Results

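The regions described here are the stretches just beyond the 3′ end of transcribed units of the fission yeast *Schizosaccharomyces pombe*, read on the same strand as the unit, where the next unit met downstream lies on that strand as well (a tandem pair). The members were chosen by the control (Cy3) signal: where 6 or more successive probes of 1 strand reached a log2 control signal of about 7.9, taken as the mean of the 16 arrays after a running median over 5 probes, they were counted as a unit. Of 2540 units in the densely tiled part of the array, 524 were followed by 15 probe numbers (600 bp at the nominal step of 40 bp) free of units on both strands, and in 378 of these the next unit was tandem. These 378 regions hold 7 probes each, 2646 in all, with 195 regions on the strand of the odd probe numbers and 183 on that of the even numbers. They were compared with 7630 features of the array in all, which are the regions themselves, the units, the antisense strand of the units and the other flanks. The control levels are therefore given as a description only, and the control signal is also the denominator of every ratio below.

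RNA polymerase II transcribes past the site where a messenger RNA is cleaved and polyadenylated, and RNA from that downstream stretch is normally removed in the nucleus. In fission yeast the nuclear exosome, with its exonuclease Rrp6, degrades such 3′ intergenic transcripts together with other cryptic unstable transcripts. Cofactors bring RNA to the exosome: the MTREC complex is built on the helicase Mtl1 and the zinc-finger protein Red1 and also holds the poly(A)-binding protein Pab2, the RNA-binding protein Rmn1, and Iss10 with Mmi1, which recognises meiotic transcripts. The TRAMP complex contains the poly(A) polymerase Cid14, and Sen1 is a helicase with roles in transcription.

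RNA depleted of ribosomal RNA from 9 mutants was compared with that of control strains on 16 custom arrays with 2 colours, the mutant cDNA always in Cy5 and the control cDNA always in Cy3. *rrp6Δ*, *red1Δ*, *pab2Δ*, *cid14Δ*, *iss10Δ*, *sen1Δ* and *mtl1-17* had 2 arrays each, and *rmn1Δ* and *mmi1Δ mei4-P572* had 1 each and so no replicate check. The deletion strains and their wild-type controls were grown at 30 °C, *mtl1-17*, a temperature-sensitive allele, and its *mtl1-flag* control were grown at 23 °C and held at 37 °C for 4 h, and *mei4-P572* was present in the *mmi1Δ* strain as well as in the control it was set against. The control strain was the same for *red1Δ*, *cid14Δ*, *iss10Δ* and *rmn1Δ*, while the other mutants had controls of their own. The dyes were never swapped, so that any preference of a probe for 1 dye is part of its ratio in each mutant and drops out only where mutants are compared with each other. As whole cultures were used, more RNA per cell and more cells that hold the RNA cannot be told apart. The p-values rest on the spread between replicate arrays, which the methods describe as biological replicates. For each feature this spread was pooled over the mutants with 2 arrays and moderated over features. A p-value therefore does not measure the spread of its own mutant alone.

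The regions lie near background. The scanner software rated 25.9% to 68.6% of their probes as well above background in the control channel, with a median of 37.8% over arrays, and 24.9% to 81.2% in the mutant channel, with a median of 46.6%. For the probes of sense units the control channel gave 94.2% to 99.4%. The mean log2 control signal of a region ran from 3.97 to 9.57 with a median of 5.71, while that of the unit upstream had a median of 9.97. It set the log ratio to exactly 0 for 9.11% to 41.9% of the member probes (median 26.1%), most on *iss10Δ* replicate 1. The number of arrays limits the precision. The probes are not paired with genes, so the deleted genes were not looked up, and a region is named by the number of the last probe of the unit upstream of it.

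The regions were raised most in *rrp6Δ*, which lacks the nuclear exonuclease of the exosome. Each region was given the mean log2 ratio of mutant over control of its probes, on a scale where the mean of the sense units of an array is 0. The median over the 378 regions was 0.73 on *rrp6Δ* replicate 1 and 0.68 on replicate 2, above every other array of the series. In the fit of both arrays the median was 0.73 ± 0.03 (SD of the array medians, n = 2), a fold of 1.66, against a median of 0.21 over all 7630 features. The middle of the distribution was wide: the lower and upper quartiles lay at 0.15 and 1.45, and single regions ran from -1.18 to 5.56. A region is said to be called higher or lower where limma's moderated test against a ratio of 0, adjusted by Benjamini-Hochberg over all features, gave an adjusted p under 0.05. In *rrp6Δ*, 237 of 378 regions (62.7%) were called higher, against 40.2% of all features, and 22 were called lower, against 15.9%. All features include the sense units, which were chosen for a high control signal, while the regions were chosen free of units. Part of the excess over all features is thus set by the rule, here and in the other mutants. Of the 237, 5 regions had no probe well above background in the control channel of either array, so that their ratios are bounds.

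**Figure D1:**
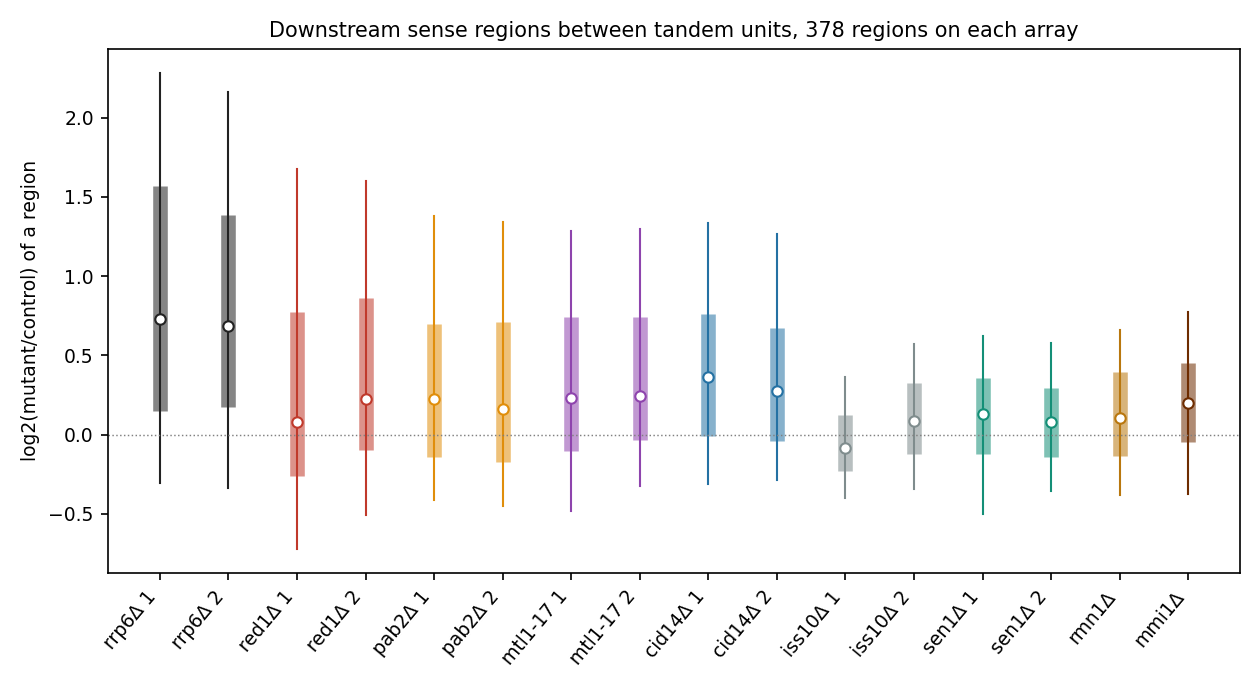
Log2 ratio of mutant over control of the 378 regions on each of the 16 arrays: the circle is the median, the thick bar spans the quartiles and the thin line the 10th to 90th percentiles over regions, and numbers after the mutant are replicates. Both *rrp6Δ* arrays have medians near 0.7, and the other arrays lie between -0.08 and 0.37.

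Among the MTREC subunits, *red1Δ*, *pab2Δ* and *mtl1-17* each raised about as many of the regions. The array medians were 0.08 and 0.23 in *red1Δ*, which lacks the zinc-finger scaffold, 0.23 and 0.16 in *pab2Δ*, which lacks the poly(A)-binding protein, and 0.23 and 0.25 in *mtl1-17*, which carries a temperature-sensitive allele of the helicase gene. The 2 arrays of *red1Δ* thus stood further apart than those of the other mutants but *iss10Δ*. In *red1Δ*, 139 regions (36.8%) were called higher, against 27.5% of all features, and 40 were called lower, against 13.7%. In *pab2Δ*, 130 regions (34.4%) were called higher, against 22.7%, and 20 lower, against 14.7%. In *mtl1-17*, 126 regions (33.3%) were called higher, against 17.4%, and 25 lower, against 5.47%. The share of members called higher was thus above that of all features in each of the 3 mutants, and nearest to it in *red1Δ*. The limit given for *rrp6Δ* holds for this excess too. In antisense regions upstream of units between tandem units the shares were higher, at 54.2% in *red1Δ*, 50.5% in *pab2Δ* and 40.5% in *mtl1-17*. Without *pab2Δ* replicate 1 or 2 the count in *pab2Δ* was 81 or 83, and without *mtl1-17* replicate 1 that in *mtl1-17* was 73.

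With the main processing, the TRAMP mutant *cid14Δ* raised nearly as many of the regions as *red1Δ* and lowered few. The array medians were 0.37 and 0.27, and the fitted median was 0.31 ± 0.07 (SD, n = 2), against -0.00 over all features. In *cid14Δ*, 123 regions (32.5%) were called higher, against 12.5% of all features, and 7 were called lower, against 7.75%. How near this count lay to that of *red1Δ* depended on the processing. With normexp and loess 83 regions were higher in *cid14Δ* and 117 in *red1Δ*. At a log2 change of at least 1 the counts were 57 and 77, and with no centring 128 and 138. The arrays of *cid14Δ* and *mtl1-17* did not overlap in their medians, while those of *pab2Δ* and *red1Δ* overlapped and reached up to just below those of *mtl1-17*. The 2 *cid14Δ* arrays were less alike over the regions (Pearson r = 0.69 across the 378 regions, which are not independent and share probes' dye bias) than those of *red1Δ* and *pab2Δ* (0.93 each) or *rrp6Δ* (0.90). Without *cid14Δ* replicate 1 the count of regions called higher was 67. Among the regions called higher, 21 in *red1Δ*, 18 in *pab2Δ*, 14 in *cid14Δ* and 0 in *mtl1-17* had no control probe well above background on any array of the mutant.

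The size of these medians depended on how the probes were read. With normexp background correction and loess they were 0.33 in *rrp6Δ*, 0.04 in *red1Δ*, 0.03 in *pab2Δ*, 0.17 in *mtl1-17* and 0.13 in *cid14Δ*, and with the median over the probes of a region in place of the mean 0.56, 0.05, -0.03, 0.16 and 0.14. *rrp6Δ* lay above the others and *mtl1-17* and *cid14Δ* above *red1Δ* and *pab2Δ* under both.

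The remaining 4 mutants changed few of the regions. In *iss10Δ*, which lacks the partner of the meiotic RNA-binding protein Mmi1, the array medians were -0.08 and 0.09, 8 regions were called higher against 1.89% of all features, and 0 were called lower against 0.157% (limma; 9 at an unadjusted p under 0.05). Its 2 arrays correlated over the regions by only 0.07. In *sen1Δ* the medians were 0.13 and 0.08, with 23 regions higher against 5.54% of all features and 11 lower against 3.6%, and without *sen1Δ* replicate 1 only 4 were called higher. With no centring of the arrays, *sen1Δ* had 18 higher and 14 lower, and with normexp background correction 15 higher and 0 lower (limma; 13 lower at an unadjusted p under 0.05). The single array of *rmn1Δ* had a median of 0.10, with 14 regions higher against 2.06% and 0 lower against 0.183% (13 at an unadjusted p under 0.05), and that of *mmi1Δ mei4-P572* a median of 0.20, with 21 higher against 3.41% and 9 lower against 2.48%. For these 2 mutants the single array was assumed to vary like the others.

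Differences between mutants were tested in the same fit, where a common dye bias cancels. *rrp6Δ* had another control strain than *red1Δ* and *cid14Δ*, so its differences from them also hold any difference between the controls. *rrp6Δ* lay above *red1Δ* by a median of 0.42, with 114 regions called higher in *rrp6Δ*, against 18.6% of all features, and 11 lower, against 7.3%. *rrp6Δ* lay above *cid14Δ* by a median of 0.40, with 138 regions called higher, against 28.8%, and 25 lower, against 8.27%. *red1Δ* and *cid14Δ* differed in both directions: 60 regions were higher in *red1Δ*, against 18.6% of all features, and 57 were higher in *cid14Δ*, against 8.74%. The median difference of -0.10 had no stable sign: it was 0.073 with slide as a fixed term, 0.029 with the median over probes and 0.0098 without *red1Δ* replicate 1. The order between *rrp6Δ* and *red1Δ* held within the slide they shared, where replicate 2 of each gave a median difference of 0.36. Without *red1Δ* replicate 1 the count above *red1Δ* was 56. With no centring of the arrays, which for *rrp6Δ* had raised values by 0.20 and 0.28, the splits became 79 higher and 21 lower against *red1Δ* and 93 higher and 46 lower against *cid14Δ*, and that of *rrp6Δ* alone 187 higher and 49 lower.

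The other strand of the same windows gave another order of the mutants. A window between tandem units holds, on its opposite strand, 8 further probes that read antisense to both units. In *red1Δ* the opposite strand had a median of 0.50, with 192 of 378 windows (50.8%) called higher, while the sense strand had 0.19 and 139 (36.8%), against 27.5% of all features. In *cid14Δ* it was the reverse: the opposite strand had a median of 0.03 with 70 windows (18.5%) called higher, while the sense strand had 0.31 and 123 (32.5%), against 12.5% of all features. In *rrp6Δ* the medians of the strands were nearly level, 0.73 on the sense strand and 0.72 on the opposite strand. The opposite strand of *pab2Δ* had a median of 0.36 and that of *mtl1-17* 0.22.

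**Figure D2:**
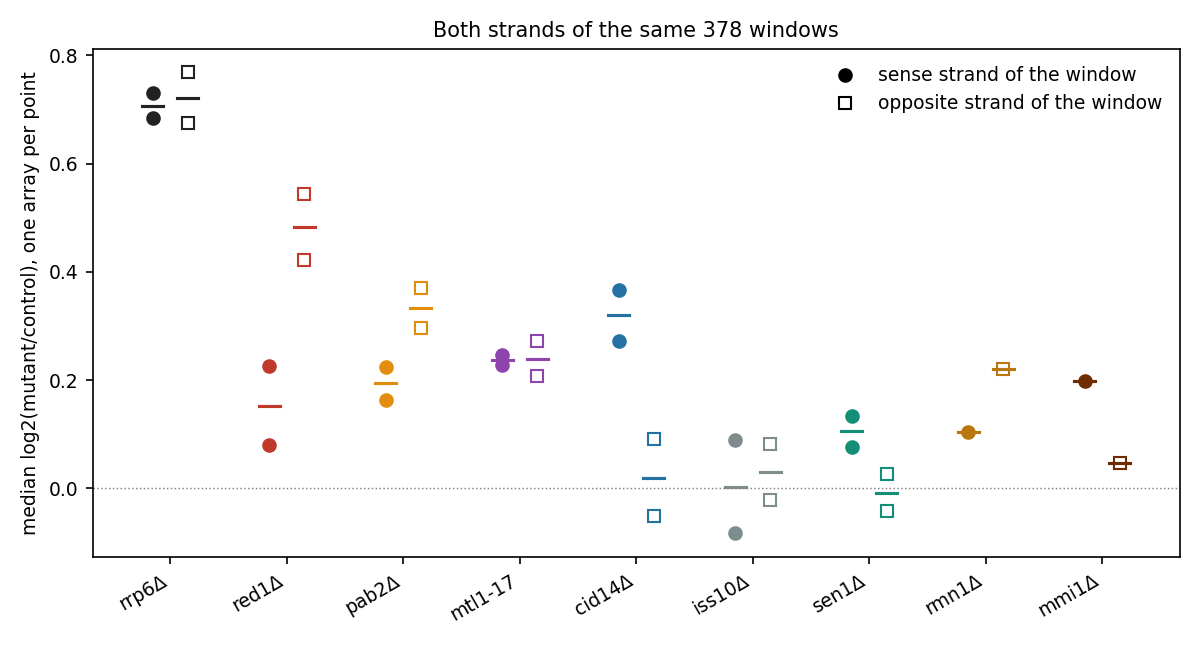
Median log2 ratio over the 378 windows on each array (1 point an array), for the sense strand (filled circles) and the opposite strand of the same windows (open squares), with the mean of the arrays as a bar. In *red1Δ* both opposite-strand medians (0.42 and 0.54) lie above both sense medians (0.08 and 0.23), and in *cid14Δ* both lie below (0.09 and -0.05 against 0.37 and 0.27).

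The strand difference of each window, sense minus opposite, was tested with limma over all 524 free downstream windows, a test chosen after the values had been seen. In *cid14Δ* the median difference was 0.29 ± 0.04 (SD of the array medians, n = 2), with the sense strand above the opposite strand in 113 of the 378 windows, against 27.9% of the 524, and below it in 28, against 10.1%. In *red1Δ* the median difference was -0.30 ± 0.06, with the sense strand above in 70 windows, against 21%, and below in 138, against 33.8%. The difference between these mutants had a median of -0.54, with *red1Δ* below *cid14Δ* in 128 windows, against 29.6% of the 524, and above it in 25, against 8.78%. The 378 windows make up most of the 524, so these shares are close by construction. Windows whose next unit was convergent had a median of -0.09 for the same difference, with 27 of 146 below and 21 above, and whether they differed from the tandem windows was not tested. Without *cid14Δ* replicate 1 or 2 the 113 windows became 66 or 67, and without *red1Δ* replicate 1 the 128 became 81. *red1Δ* and *cid14Δ* shared no slide, and with slide as a fixed term (1 residual degree of freedom) the 128 became 61.

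In the other mutants the median strand difference was smaller, from -0.12 in *rmn1Δ* to 0.19 in *mmi1Δ mei4-P572*. Single windows still differed often in *rrp6Δ*, *pab2Δ* and *mtl1-17*, in both directions. The sense strand lay above the opposite strand in 100 windows and below it in 112 in *rrp6Δ*, against 27.7% and 29.4% of the 524 windows, in 64 and 105 in *pab2Δ*, against 18.7% and 25.6%, and in 73 and 66 in *mtl1-17*, against 21% and 17.2%. *sen1Δ*, with 35 above and 12 below, against 9.16% and 4.39%, and *mmi1Δ mei4-P572*, with 33 above and 9 below, against 9.92% and 4.77%, leaned to the sense strand. *iss10Δ* had 4 above and 9 below, against 2.48% and 3.24%, and *rmn1Δ* 2 and 6, against 0.382% and 1.34%. Set against *rrp6Δ*, which had another control strain, both *red1Δ* and *cid14Δ* stood apart, in opposite directions. The strand difference was higher in *rrp6Δ* than in *red1Δ* in 81 windows, against 18.9%, and lower in 28, against 8.4%. It was higher in *rrp6Δ* than in *cid14Δ* in 39 windows, against 12.4%, and lower in 100, against 25.2%.

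The calls against the control can also be counted by strand. In *cid14Δ*, 100 windows (26.5%) were called higher on the sense strand only, 47 (12.4%) on the opposite strand only and 23 (6.08%) on both, against 26.3%, 13.4% and 6.11% of all 524 free downstream windows. In *red1Δ* the counts were 49 (13%) on the sense strand only, 102 (27.0%) on the opposite strand only and 90 (23.8%) on both, against 17.0%, 25.2% and 20.4% of the 524. In the same order *pab2Δ* had 47, 87 and 83, against 15.6%, 21.4% and 18.5%, *mtl1-17* had 61, 72 and 65, against 20.2%, 19.1% and 15.1%, and *rrp6Δ* 60, 69 and 177, against 18.3%, 19.3% and 43.5%. The shares of the tandem windows were thus near those of all free downstream windows, of which they are the larger part. The strand differences of *red1Δ* and *rrp6Δ* were tested against *cid14Δ* as given above, and those of *pab2Δ* and *mtl1-17* were not.

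**Figure D3:**
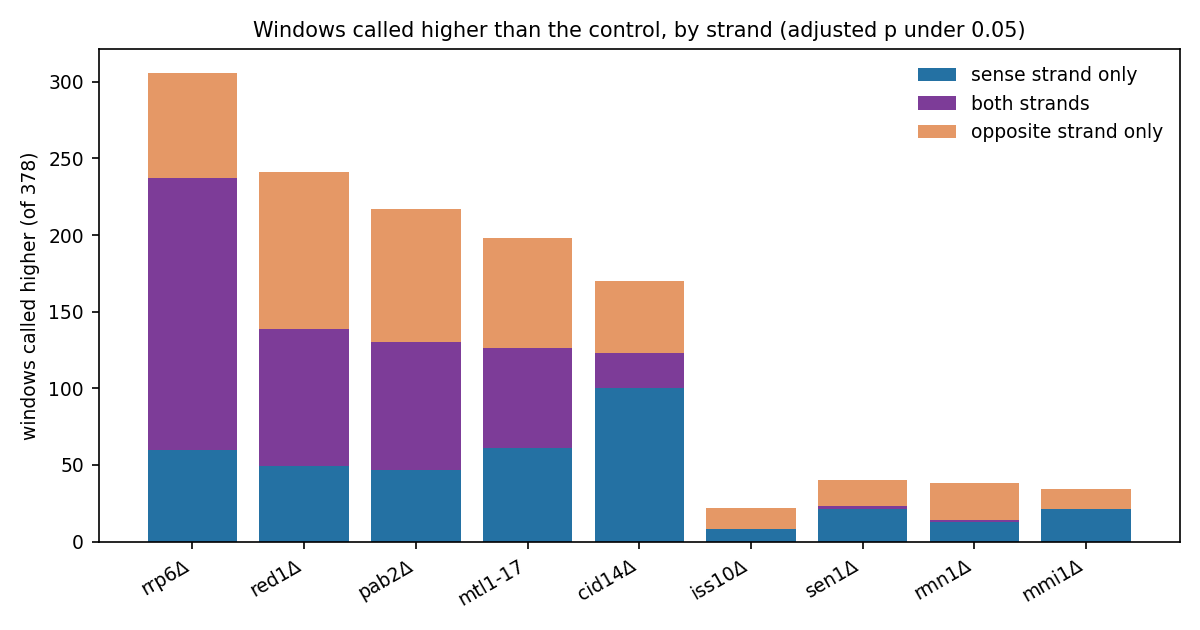
Number of the 378 windows called higher than the control (adjusted p under 0.05) on the sense strand only, on both strands and on the opposite strand only, stacked for each of the 9 mutants. The part for the sense strand only is 100 windows in *cid14Δ* and 49 in *red1Δ*, while *rrp6Δ* has 177 windows called on both strands.

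Along the region, the ratios rose just past the end of the unit and fell slowly after that. By rule a unit ends where the control signal falls, and this signal is the denominator of the ratio. The rise at this edge is thus set in part by the rule, and the profile is a description. In *rrp6Δ* the mean over regions was 0.05 at the nominal distance of 400 bp before the last probe of the unit, 0.31 ± 0.04 at that probe, 0.58 ± 0.15 at 80 bp beyond it and 1.00 ± 0.07 at 240 bp, and it was still 0.74 ± 0.15 at 560 bp (SD, n = 2 arrays). *cid14Δ* reached its highest mean, 0.62 ± 0.02, at 160 bp and fell to 0.27 ± 0.03 at 560 bp. *pab2Δ* went from 0.52 ± 0.03 at 160 bp to 0.16 ± 0.02 at 560 bp, *red1Δ* from 0.49 ± 0.11 to 0.26 ± 0.02 and *mtl1-17* from 0.48 ± 0.01 to 0.20 ± 0.05. The *rrp6Δ* means at 160 and 240 bp lay within the spread of its arrays, and on replicate 2 the highest was that at 160 bp. On the opposite strand the profiles were flatter: *red1Δ* lay between 0.51 and 0.73 and *cid14Δ* between 0.05 and 0.18 at all 8 positions.

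**Figure D4:**
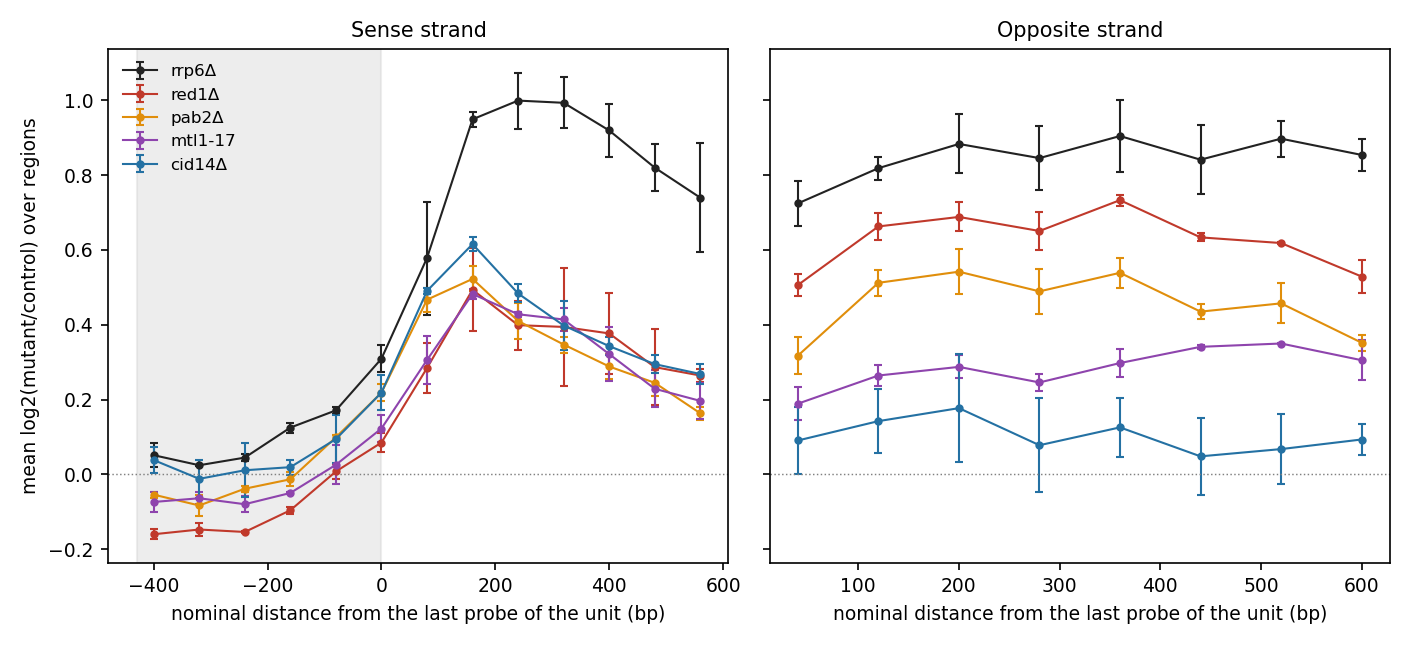
Mean log2 ratio over the 378 regions by nominal distance from the last probe of the upstream unit, sense strand (left, with the unit shaded) and opposite strand (right); bars are the SD of 2 arrays. On the sense strand *rrp6Δ* reaches 1.00 at 240 bp and the other 4 mutants peak between 0.48 and 0.62 at 160 bp, while on the opposite strand the mutants stand apart, from *rrp6Δ* at the top to *cid14Δ* at the bottom.

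Few regions passed a strict rule for a rise along their whole length. All 7 probes had a log2 ratio of at least 1 on every array of the mutant in 17 regions in *rrp6Δ*, 7 in *red1Δ*, 3 in *mtl1-17* and 2 each in *pab2Δ* and *cid14Δ*. Over the first 3 probes alone these counts were 48, 35, 19, 24 and 18. The scanner software set the ratios of 9.11% to 41.9% of the member probes of an array to no change. A region that holds such a probe fails the rule by default. No such count over other features is set beside these, so how far the rise extends in a region was not tested.

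The next unit downstream lay between 16 and 472 probe numbers away, with a median of 26. Where it was 16 to 30 numbers away (239 regions), the gap was cut into 5 equal parts. The mean *rrp6Δ* ratio was 0.87, 1.07, 0.89, 0.57 and 0.36 in these parts, and -0.03 at the start of the next unit. Sense units set the 0 of the scale and were chosen by control signal, so the value near 0 in the next unit is no result. The start of the next unit was set by the control signal as well, so the fall towards it is a description. *cid14Δ* went from 0.57 in the first part to 0.17 in the last, *red1Δ* from 0.52 to -0.01 and *pab2Δ* from 0.61 to -0.04. At 31 to 60 numbers (102 regions) *rrp6Δ* stayed between 0.72 and 0.91 over the first 4 parts and fell to 0.41 in the last. At over 60 numbers it was still 0.55 in the last part. The median over the regions themselves hardly moved with this distance in *rrp6Δ*, which had 0.74, 0.73 and 0.72 in the near, middle and far group.

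The 37 regions whose next unit lay over 60 numbers away had other values in the MTREC mutants. Their median was -0.06 ± 0.09 in *red1Δ*, with 9 called higher (24.3%, against 27.5% of all features) and 6 lower (16.2%, against 13.7%), and -0.11 ± 0.10 in *mtl1-17*, with 9 higher (24.3%, against 17.4%) and 10 lower (27.0%, against 5.47%). *cid14Δ* had 0.48 ± 0.04 with 14 higher (37.8%, against 12.5%), and *pab2Δ* 0.09 ± 0.12 with 5 higher (13.5%, against 22.7%). At the 3′ end of the upstream units of these 37 regions the mean was -0.37 in *red1Δ*, -0.33 in *mtl1-17*, -0.30 in *pab2Δ* and 0.33 in *cid14Δ*. The opposite strand changed with the distance too: its median in *red1Δ* was 0.68 in the near group, 0.25 in the middle and -0.15 in the far group, and in *cid14Δ* it was 0.00, 0.09 and 0.22. These groups are set side by side without a test.

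**Figure D5:**
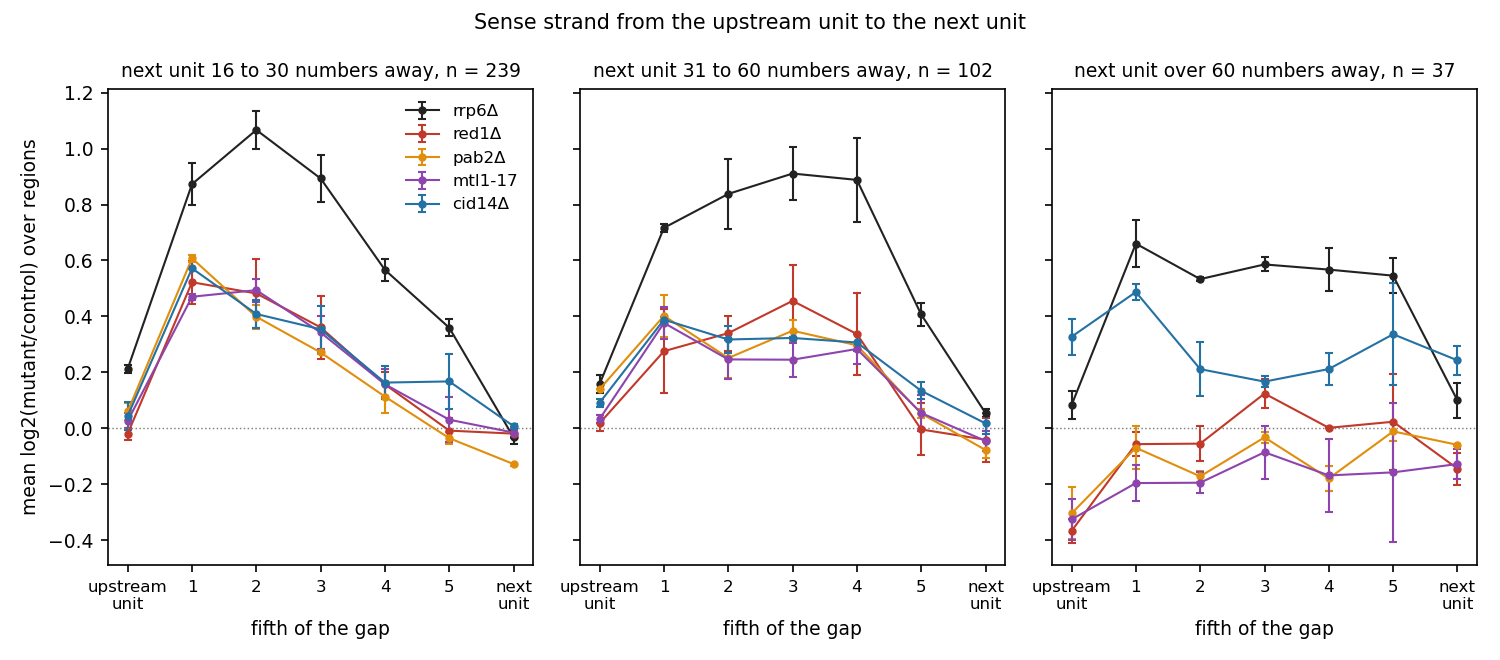
Mean log2 ratio on the sense strand at the end of the upstream unit, in 5 equal parts of the gap and at the start of the next unit, for regions whose next unit lies 16 to 30 (n = 239), 31 to 60 (n = 102) or over 60 (n = 37) probe numbers away; bars are the SD of 2 arrays. In the first panel *rrp6Δ* reaches 1.07 and falls to -0.03 in the next unit. Over the 5 parts of the gap in the last panel, *red1Δ*, *pab2Δ* and *mtl1-17* are at 0.12 or lower. There *rrp6Δ* stays above 0.5 and *cid14Δ* is at 0.17 or more, while in the units *rrp6Δ* is at 0.08 and 0.10.

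Regions behind brighter units were raised more. Split into 3 groups of 126 regions by the control level of the upstream unit, the median in *rrp6Δ* was 0.30 ± 0.02, 0.82 ± 0.08 and 1.05 ± 0.06 from the dimmest to the brightest group. *red1Δ* had -0.16 ± 0.17, 0.30 ± 0.06 and 0.34 ± 0.15, with 28 of its 40 lower calls in the dimmest group. In *cid14Δ* the medians were 0.21 ± 0.08, 0.27 ± 0.14 and 0.48 ± 0.25, steps that lie within the spread of its arrays. By the control level of the region itself, *rrp6Δ* had medians of 0.92, 0.86 and 0.32 from the dimmest to the brightest group. The control level is part of both the rule and the ratio, so these groups are a description.

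The units on either side set the 0 of the scale together with all other sense units, so their medians near 0 are no result, but their calls can be set beside those of the regions. Of the 237 regions called higher in *rrp6Δ*, the upstream unit was called higher as well in 81 (34.2%) and the next unit in 65 (27.4%), against 21.4% of all sense units. In *cid14Δ* this was so for 22 (17.9%) and 15 (12.2%) of 123 regions, against 9.06% of all sense units. Across regions the ratio followed that of the upstream unit more closely than that of the next one, with Pearson r of 0.40 and 0.18 in *rrp6Δ* and 0.51 and 0.13 in *red1Δ* (378 regions, all from the same arrays).

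Most regions raised in a cofactor mutant were raised in *rrp6Δ* as well, which was compared with a different control strain. Of the 139 regions called higher in *red1Δ*, 129 (92.8%) were called higher in *rrp6Δ*, which is 54.4% of the *rrp6Δ* list. For *mtl1-17* it was 119 of 126 (94.4%; 50.2% of the *rrp6Δ* list), for *pab2Δ* 117 of 130 (90%; 49.4%) and for *cid14Δ* 105 of 123 (85.4%; 44.3%), where 62.7% of all members were in the *rrp6Δ* list. *cid14Δ* had 18 regions called higher that were not called higher in *rrp6Δ*, and *red1Δ* had 10. All 21 regions of *mmi1Δ mei4-P572* were in the *rrp6Δ* list, and 16 of the 23 regions of *sen1Δ*. These overlaps were not counted over all features, so they cannot be read as a trait of these regions. Counted over the 9 mutants, 99 regions were called higher in none, 88 in 1, 36 in 2, 54 in 3, 38 in 4, 36 in 5, 23 in 6, 3 in 7 and 1 in 8. No such count over all features is set beside it, so it cannot be read as a trait of these regions. Of all features, 40.2% were called higher in *rrp6Δ* and 27.5% in *red1Δ*.

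Single regions were named only where at least 4 of their 7 probes were well above background in both channels on every array of the mutant or mutants concerned, and every highest or lowest value named here is the highest or lowest among the regions that passed this filter, which was not always that of all 378. The highest in *rrp6Δ* among these were the regions after probes 113152 and 669. The region after probe 113152 had log2 ratios of 3.62 and 3.37 on the *rrp6Δ* arrays, 2.09 and 1.83 in *red1Δ*, 0.95 and 1.07 in *pab2Δ*, 0.13 and 0.74 in *mtl1-17*, and 1.00 and 2.61 in *cid14Δ*. The *rrp6Δ* and *red1Δ* values do not overlap with those of *mtl1-17*, while the *cid14Δ* arrays span a wide range. Its fitted *rrp6Δ* ratio was 3.50 ± 0.40 (SE; limma adjusted p = 1.1e-05). That after probe 669 had 3.59 and 3.01 in *rrp6Δ* and a fitted ratio of 3.30 ± 0.36 (SE; limma adjusted p = 5.9e-06). Both regions had almost the same values throughout: they differed by a median of 0.11 over the 16 arrays and by 0.54 at most, although they lie on different strands far apart in probe number. Whether their probes share sequence was not tested.

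The region after probe 23025 was the highest in *mtl1-17* among those that passed the filter there, and it was higher still in *rrp6Δ*. Over all 378 regions the highest *mtl1-17* ratio was 3.14. Its *mtl1-17* arrays read 2.50 and 2.11, its *rrp6Δ* arrays 4.67 and 4.61, its *red1Δ* arrays 3.82 and 3.53, its *pab2Δ* arrays 2.50 and 2.20 and its *cid14Δ* arrays 1.00 and 1.45. No *cid14Δ* array reached a value of the other 4 mutants. In *mtl1-17* the fitted ratio was 2.31 ± 0.18 (SE; limma adjusted p = 4.6e-06). Its upstream unit rose with it, by 4.13 in *rrp6Δ*, 4.01 in *red1Δ*, 1.93 in *pab2Δ* and 2.08 in *mtl1-17*, and stood at 0.18 in *cid14Δ*. In the control channel as few as 1 of its 7 probes was well above background on a *rrp6Δ* array and 0 on a *red1Δ* array, while in *mtl1-17* all 7 were.

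The region after probe 106855 was the highest among those that passed the filter in *red1Δ*, *iss10Δ* and *mmi1Δ mei4-P572*, and 1 of the pair called higher in most mutants. On the *iss10Δ* arrays it read 3.75 and 3.37, on that of *mmi1Δ mei4-P572* 1.83, in *rrp6Δ* 1.80 and 1.36, in *red1Δ* 1.71 and 1.21, in *pab2Δ* 1.47 and 1.20, in *mtl1-17* 0.86 and 0.74 and in *cid14Δ* 0.36 and 0.33. The *iss10Δ* arrays lay above all others. The fitted *iss10Δ* ratio was 3.56 ± 0.16 (SE; limma adjusted p = 1.4e-07), where the median over the regions was 0.00. The unit upstream of it was at 3.22 in *iss10Δ*, and the opposite strand at -0.04. Among the regions that passed the filter in both mutants it was also the highest in *red1Δ* relative to *cid14Δ*, by 1.11 ± 0.22 (SE; limma adjusted p = 0.0026), while over all 378 regions the highest was that after probe 23025, at 2.45. The pair was picked among regions that passed the filter, while of all 378 regions 3 were called higher in 7 mutants and 1 in 8. The other of that pair followed probe 21424, with 6 mutants: it read 0.97 and 1.58 in *rrp6Δ*, 1.10 and 1.42 in *red1Δ* and 1.55 on the *mmi1Δ mei4-P572* array.

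In *cid14Δ* the highest region that passed the filter followed probe 34604, behind a very bright unit (log2 control signal 14.1). Over all 378 regions the highest *cid14Δ* ratio was 2.97. It read 2.07 and 2.44 in *cid14Δ*, 1.18 and 2.28 in *rrp6Δ*, 1.82 and 2.21 in *pab2Δ*, 1.25 and 1.25 in *mtl1-17* and 0.67 and 1.31 in *red1Δ*. The *cid14Δ* values overlap with those of *rrp6Δ* and *pab2Δ* and lie above those of *red1Δ* and *mtl1-17*. Its unit stayed at -0.10 in *cid14Δ* and its opposite strand at -0.01. The fitted *cid14Δ* ratio was 2.26 ± 0.26 (SE; limma adjusted p = 0.00012), and it was lower in *red1Δ* than in *cid14Δ* by a fitted difference of -1.27 ± 0.37 (SE; limma adjusted p = 0.024).

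The region after probe 122274 was the highest in *sen1Δ* among those that passed the filter. It read 2.29 and 2.38 in *sen1Δ*, 3.41 and 2.16 in *cid14Δ*, 1.20 and 1.22 in *rrp6Δ* and 1.10 and 0.87 in *red1Δ*, so that the *sen1Δ* and *cid14Δ* arrays lay above those of the exosome mutant. Its *sen1Δ* ratio was 2.33 ± 0.24 (SE; limma adjusted p = 0.00023), but with the median over probes in place of the mean it was 0.71. The unit upstream was at -0.30 in *sen1Δ*. The region after probe 22740, the highest in *pab2Δ* among those that passed the filter, while the maximum over all 378 was 3.72, read 1.79 and 2.09 there and 2.53 and 2.01 in *red1Δ*, with a fitted *pab2Δ* ratio of 1.94 ± 0.16 (SE; limma adjusted p = 2.4e-06). After probe 116848 lay the region highest on the single *rmn1Δ* array by the same filter, at 1.57, and read 2.20 and 2.41 in *pab2Δ*, 2.24 and 2.40 in *red1Δ* and 2.22 and 2.05 in *rrp6Δ*. Its *rmn1Δ* call was lost with normexp, with the median over probes and with the series table.

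Some regions fell. The lowest in *rrp6Δ* with the filter were those after probe 120481, with -1.24 and -1.12 in *rrp6Δ* and -1.39 and -1.12 in *red1Δ*, and after probe 101369, with -0.86 and -1.05 in *rrp6Δ* and -1.74 and -0.85 in *red1Δ*. Neither was called in *cid14Δ*, where the arrays read -0.40 and 0.18 for the first and 0.35 and 0.56 for the second. Their upstream units fell with them in *rrp6Δ*, at -1.37 and -0.58. The fitted *rrp6Δ* ratio of the first was -1.18 ± 0.25 (SE; limma adjusted p = 0.0016) and that of the second -0.96 ± 0.25 (SE; limma adjusted p = 0.0061), a call that was lost without *rrp6Δ* replicate 2 (-0.86; limma adjusted p = 0.089).

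The lowest difference of *red1Δ* minus *cid14Δ* over all 378 regions was -3.64. Among regions that passed the filter in both mutants, the lowest were those after probes 115957 and 138160. The first read -1.10 and -0.52 in *red1Δ* and 0.57 and 0.30 in *cid14Δ*, a difference of -1.24 ± 0.35 (SE; limma adjusted p = 0.019). Its opposite strand went the other way, at 0.93 in *red1Δ* and -1.43 in *cid14Δ*. The second read -0.37 and -0.58 in *red1Δ* and 0.32 and 1.11 in *cid14Δ*, a difference of -1.19 ± 0.31 (SE; limma adjusted p = 0.013). Second highest with the filter was the region after probe 10221, with 1.59 and 1.10 in *red1Δ* and 0.40 and 0.27 in *cid14Δ*, a difference of 1.02 ± 0.28 (SE; limma adjusted p = 0.018). In none of these do the arrays of the mutants overlap. The calls were lost without *red1Δ* replicate 1 or either *cid14Δ* array for the region after probe 10221, without *red1Δ* replicate 1 or *cid14Δ* replicate 1 for that after 115957, and without *red1Δ* replicate 2 or *cid14Δ* replicate 2 for that after 138160.

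Beside other flanks the regions stood as follows, without a test of the difference. Downstream regions whose next unit was convergent (146) had medians of 0.73 in *rrp6Δ*, 0.28 in *red1Δ*, 0.09 in *pab2Δ*, 0.30 in *mtl1-17* and 0.19 in *cid14Δ*. Antisense regions upstream of units between tandem units (378) had 0.82, 0.52, 0.45, 0.34 and 0.03. These antisense regions lie in the same gaps as the members, at the end next to the downstream unit. Where the gap is short they share probes with the opposite strand described above, so the 2 sets are not separate observations. Near the edge of the rule, windows free over only 13 to 14 numbers (71, left out) had a median of 0.71 in *rrp6Δ*, those free over 15 to 16 numbers (56, kept) 0.85 and those over 17 to 20 (69, kept) 0.66.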

How the data were processed

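The regions, groups and named lists were chosen with earlier results of these data known. The authors scanned the arrays and extracted them with Agilent Feature Extraction 10.7.3.1 per the labels (1 file header names another release), which subtracts background and normalizes the dyes within the array by lowess. As deposited, each file holds the processed intensity of both channels, median signal intensities with their backgrounds, a log10 ratio of Cy5 over Cy3, and the software's p-value of that ratio. The deposited series table holds log2 ratios that equal the scanner ratios where that p-value passed and 0 elsewhere, as tested on the files (over 98% of probes within 0.01 on 15 arrays, 77.0% on *sen1Δ* replicate 2). The orientation of odd and even probe numbers was taken as given, and distances are nominal.

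Ratios were turned into log2, probes flagged as outliers were left out (6 member values) and no probe was saturated. Features held at least 3 probes. The mean ratio of the sense units was subtracted from each array. All 16 arrays entered 1 limma fit (version 3.58.1, R 4.3.3; 7630 features, 7 residual and 5.32 prior degrees of freedom) with the 9 mutants as groups, two-sided, with Benjamini-Hochberg adjustment. The fit of the strand difference was added after the values were seen. Named regions had an adjusted p under 0.05, the same sign on every array and at least 4 of 7 probes well above background in both channels: the 2 highest and lowest in *rrp6Δ*, the highest in each other mutant, the 2 highest and lowest in *red1Δ* minus *cid14Δ* and the 2 called higher in most mutants. Python 3.11.15, numpy 2.4.6, pandas 2.3.3 and matplotlib 3.10.9 were used. Steps were tested on simulated data. No probe sequence or coordinate was used. The alternatives are listed with their effect in the closing section.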

Additional observations from a re-analysis of the deposited data

Results flagged for a closer look

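Tested differences between mutants were the results picked out for a closer look, since groups of 1 or 2 arrays are too small to look for single arrays that stand apart. Of the 378 regions, 114 were higher and 11 lower in *rrp6Δ* than in *red1Δ*, against 18.6% and 7.3% of all features. Against *cid14Δ*, 138 were higher and 25 lower in *rrp6Δ*, where all features had 28.8% and 8.27%. In *red1Δ*, 60 were higher (15.9%) and 57 lower (15.1%) than in *cid14Δ*, against 18.6% and 8.74% of all features. The strand difference of a window was lower in *red1Δ* than in *cid14Δ* in 128 windows and higher in 25, against 29.6% and 8.78% of the 524. That test was chosen after the values had been seen. For single regions, the fitted difference of *red1Δ* minus *cid14Δ* was 1.11 after probe 106855, 1.02 after probe 10221, -1.24 after probe 115957 and -1.19 after probe 138160. *red1Δ* and *cid14Δ* were compared with the same control strain, unlike *rrp6Δ*, and the difference between them does not depend on a dye bias common to the arrays.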

How the results depend on the processing

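Over all alternatives, 384 values of the main counts stayed within 1.5 times and 55 did not. Of the medians, the counts of lower calls and the single regions, 1005 values held within the spread of the arrays or kept their call, 19 lost their call, 158 moved further and 1 turned by more than that spread. Medians that changed sign were that of *pab2Δ* (0.18 to -0.033, median over probes), that of *sen1Δ* (0.10 to -0.0053, no centring or the median of all probes as 0), that of *red1Δ* minus *cid14Δ* (to 0.029 with the median over probes and 0.0098 without *red1Δ* replicate 1) and that of *iss10Δ*, which lay at 0.00 and ran from -0.083 to 0.089 when single arrays were left out. Asking for a log2 change of at least 1 left 145 regions higher in *rrp6Δ*, 77 in *red1Δ*, 60 in *pab2Δ*, 61 in *mtl1-17*, 57 in *cid14Δ* and 4 in *sen1Δ*, with 67 above *red1Δ* and 80 above *cid14Δ* in *rrp6Δ*, 36 higher in *red1Δ* than in *cid14Δ*, and strand differences in 56 (*cid14Δ*, sense above) and 87 (*red1Δ*, sense below). The median over probes gave 78 regions higher in *pab2Δ*, 77 in *cid14Δ*, 3 in *iss10Δ*, 8 in *sen1Δ*, 4 in *rmn1Δ* and 56 windows with the sense strand above in *cid14Δ*. Normexp with loess gave 82 in *pab2Δ*, 15 in *sen1Δ* and 5 in *rmn1Δ*. The series table gave 5 in *iss10Δ*, 9 in *sen1Δ* and 7 in *rmn1Δ*. Leaving out ratios set to exactly 0 gave 70 regions higher in *rrp6Δ* than in *red1Δ*.

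Other definitions changed the number of regions itself. A window of 20 probe numbers (253 regions) gave 91 higher in *red1Δ*, 81 in *pab2Δ*, 72 in *mtl1-17*, 77 in *cid14Δ*, 14 in *sen1Δ*, 6 in *rmn1Δ* and 13 in *mmi1Δ mei4-P572*, and strand counts of 54 (*cid14Δ*, sense above), 75 (*red1Δ*, sense below) and 59 (*red1Δ* below *cid14Δ*). A unit threshold 1 log2 unit lower (249 regions) gave 80 in *pab2Δ*, 79 in *cid14Δ*, 5 in *iss10Δ* and 12 in *sen1Δ*, and strand counts of 56, 79 and 71 in the same order. A threshold 1 unit higher (511 regions) gave 42 in *sen1Δ* and 33 in *mmi1Δ mei4-P572*, and asking for 100 bp free upstream of the unit (329 regions) gave 5 in *iss10Δ*. With units taken from the control channels of the other mutants, with a filter on dim probes, with the median of all probes as 0 and with slide as a random block, no main count moved by over 1.5 times.

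Slide as a fixed term could be fitted for differences between mutants only. It turned the median of *red1Δ* minus *cid14Δ* from -0.10 to 0.073 and left 61 windows with the strand difference of *red1Δ* below that of *cid14Δ*. The cause was not tested.

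The replicate numbers did not pair the arrays throughout: same-numbered arrays of different mutants deviated together with r over 0.1 in 8 of 21 pairs (-0.35 to 0.56). The highest r was that of *iss10Δ* and *red1Δ*, whose replicate 1 arrays shared a slide. For mutants whose replicate 2 arrays shared a slide, r ran from -0.26 (*red1Δ* and *pab2Δ*) to 0.39 (*mtl1-17* and *cid14Δ*). With the replicate block the counts of regions called higher were 241 in *rrp6Δ*, 139 in *red1Δ*, 132 in *pab2Δ*, 125 in *mtl1-17*, 126 in *cid14Δ* and 27 in *sen1Δ*, and the block changed no other main count by over 1.5 times.

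Leaving out 1 array at a time gave these ranges of regions called higher: 198 to 244 in *rrp6Δ*, 100 to 144 in *red1Δ*, 81 to 141 in *pab2Δ*, 73 to 131 in *mtl1-17*, 67 to 140 in *cid14Δ*, 7 to 10 in *iss10Δ*, 4 to 31 in *sen1Δ*, 11 to 15 in *rmn1Δ* and 20 to 31 in *mmi1Δ mei4-P572*. For *rrp6Δ* over *red1Δ* it was 56 to 134, for *rrp6Δ* over *cid14Δ* 100 to 147 and for *red1Δ* over *cid14Δ* 41 to 62. The strand counts ran from 66 to 116 (*cid14Δ*, sense above), 92 to 142 (*red1Δ*, sense below) and 81 to 133 (*red1Δ* below *cid14Δ*). Where an arm was left with 1 array, that array was assumed to vary like the others. Probes near background, many with a ratio set to 0, limit what can be seen in single regions.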
